A study of Mus musculus with 6 samples.

Results

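The genes of vascular endothelial growth factor (VEGF) signalling were examined for DNA methylation in the dentate gyrus, a subregion of the hippocampus. The set held 4 ligand genes (Vegfa, Vegfb, Vegfc and Pgf), 3 VEGF receptor genes (Flt1, Kdr and Flt4) and Tek, which encodes the angiopoietin receptor Tie2. Covered cytosines were taken from 1 kb before the gene start to the gene end on the mm10 genome, which gave 528 of the 890041 sites of the table. The mice were female C57BL/6JRj animals aged 4.5 months, and no transgene or drug is named in their labels. The 3 STD mice lived in standard cages and the 3 ENR mice in an enriched environment, a large enclosure with toys that is shared by a larger group. A separate RRBS library was made for each mouse from micro-dissected tissue. RRBS (reduced representation bisulfite sequencing) reads CpG-rich fragments cut at CCGG and gives, for each cytosine, the percent of reads that were methylated. This percent averages over all cells of the tissue, so a change in the share of a cell type and a change within a cell type cannot be told apart.

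VEGF ligands are secreted proteins that bind receptor tyrosine kinases on endothelial cells and drive the growth and permeability of blood vessels. Kdr is the main signalling receptor for Vegfa, while Flt1 binds Vegfa, Vegfb and Pgf and acts largely as a decoy. Flt4 binds Vegfc and is best known from lymphatic vessels. In the hippocampus, VEGF and the vessels of the neurogenic niche are known for their link to adult neurogenesis. CpG-dense promoters of vertebrate genes are usually unmethylated, whereas CpGs within genes are usually methylated.

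The libraries differed in level within both groups. Over all sites the means were between 21.3% and 24.3%, and replicate 3 was the lowest library of both groups. At the 67 sites of these genes with a mean level of 20 to 80%, STD replicates 1 to 3 had 48.7%, 50.7% and 37.1%, and ENR replicates 1 to 3 had 50.1%, 49.0% and 34.4%. The part of this gap in the values below was not tested. The number of reads per site is unknown beyond the minimum set by the authors.

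Coverage differed widely between the genes. Flt1 had 193 covered sites, Vegfa 104, Flt4 87, Kdr 65, Vegfc 37, Vegfb 25, Pgf 13 and Tek 4. Sites within 1 kb of any transcript start of the gene were called promoter (359 sites) and the rest of the window body (169 sites). The stretches of 250 bases before the RefSeq starts (GRCm38.p6, the mm10 sequence) show the contrast between a dense, an intermediate and a sparse promoter. Every CpG is in capitals and the strand is that of the gene.
Vegfc, chr8:54077282-54077531, plus strand: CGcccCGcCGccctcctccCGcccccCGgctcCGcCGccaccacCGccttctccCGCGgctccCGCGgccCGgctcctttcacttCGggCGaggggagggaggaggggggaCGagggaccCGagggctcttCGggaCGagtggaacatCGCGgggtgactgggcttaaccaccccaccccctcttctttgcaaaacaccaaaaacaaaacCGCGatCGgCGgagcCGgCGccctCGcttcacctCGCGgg
Kdr, chr5:75978456-75978705, minus strand: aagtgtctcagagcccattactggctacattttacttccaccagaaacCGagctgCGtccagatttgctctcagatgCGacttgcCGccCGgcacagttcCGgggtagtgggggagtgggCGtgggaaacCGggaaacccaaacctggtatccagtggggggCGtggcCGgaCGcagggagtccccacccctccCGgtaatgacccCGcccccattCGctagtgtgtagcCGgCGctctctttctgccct
Tek, chr4:94739039-94739288, plus strand: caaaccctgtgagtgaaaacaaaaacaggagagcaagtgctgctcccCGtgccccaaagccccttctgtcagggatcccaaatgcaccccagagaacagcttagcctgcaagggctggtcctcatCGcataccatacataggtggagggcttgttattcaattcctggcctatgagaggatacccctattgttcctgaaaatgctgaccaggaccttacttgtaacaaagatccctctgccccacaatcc
The Vegfc stretch held 30 CpGs, of which 13 were covered. The Kdr stretch held 16, of which 2 were covered. The Tek stretch held 2 and neither was covered, so no promoter level can be given for Tek. Within 1 kb on either side of the Tek start the reference has 29 CpGs and 4 CCGG sites, against 157 CpGs and 24 CCGG sites at Flt1.

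Promoters were close to unmethylated in 6 of the 7 genes with covered promoter sites. Over the 6 libraries, mean promoter levels (± SD, n = 6) rose from Vegfc (1.29% ± 0.634), Vegfa (1.44% ± 0.353), Vegfb (1.60% ± 0.822) and Flt4 (2.19% ± 0.724) to Kdr (4.01% ± 1.19), Flt1 (5.52% ± 1.47) and Pgf (10.7% ± 6.11). The ranges over libraries overlapped between all neighbours in this order. Flt1 stands above Kdr only through 12 sites near other transcript starts: within 1 kb of the gene start Flt1 had 2.23% ± 0.432. The median over 19240 gene promoters was 2.26%. Bodies were higher: Flt4 had 19.5% ± 1.97, Pgf 21.8% ± 14.7, Vegfa 29.5% ± 4.64, Flt1 33.9% ± 5.74, Kdr 52.0% ± 5.34, Tek 89.1% ± 4.69 and Vegfc 95.2% ± 4.12, the last from 2 sites. Neighbours in this order overlapped in range, except that all Kdr libraries lay above the Flt1 libraries and below the Tek libraries. Vegfb had no covered body site. The median over 12285 gene bodies was 52.7%, so 4 of the 6 bodies with 3 or more sites lay below it by more than their SD.

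**Figure D1:**
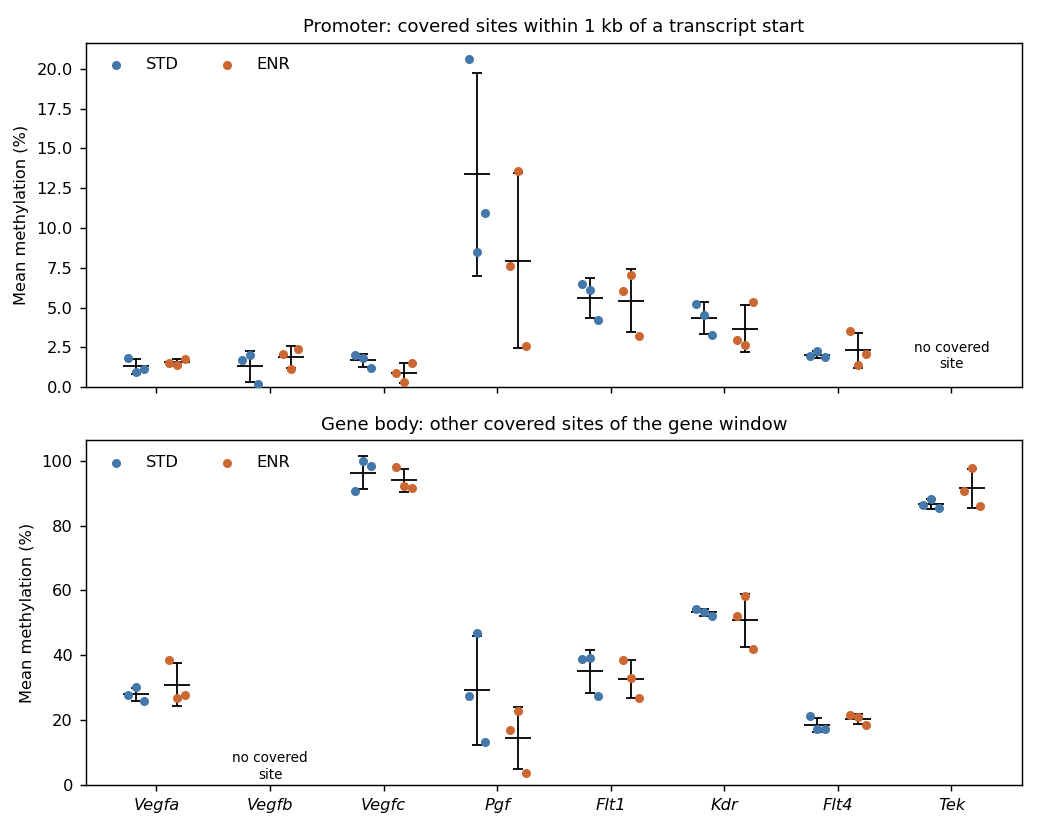
Mean methylation (%) of the promoter (top) and body (bottom) of each gene, with 1 point per library (STD blue, ENR orange) and bars for the group mean ± SD (n = 3). Promoters sit near 0 except for Pgf, whose libraries spread from 2.62% to 20.6%, and bodies run from 3.78% in 1 Pgf library to 100% in 1 Vegfc library.

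Body minus promoter was taken within each library for the 5 genes with 3 or more sites in both regions. Kdr had the widest gap, 48.0 points ± 6.11 (SD, n = 6), followed by Flt1 with 28.4 ± 4.67, Vegfa with 28.0 ± 4.63 and Flt4 with 17.3 ± 1.92. With medians over sites, Vegfa had 14.4 and Flt4 8.38 points, and with the promoter set by the gene start alone Vegfa had 11.4. Kdr, Flt1, Vegfa and Flt4 passed limma's test over all genes, with adjusted p-values from 2.7e-06 to 8.05e-06. Pgf had 11.2 points ± 13.8 and did not pass (limma, adjusted p = 0.0606). Its call depended on the processing: it passed under 4 alternatives and not under 8. In the table as a whole the body was called higher in 84.1% of 8687 genes and the median gap was 39.3 points, so 4 of 5 is near the background. With the promoter taken as the 1 kb before the start alone, and all later sites as body, the share over all genes was 54.4% (5259 of 9667). The gap was then 13.7 points for Flt1, 10.5 for Kdr and 6.61 for Vegfa, so the order of Kdr and Flt1 was exchanged, and all 3 still passed (limma, adjusted p = 0.00346 or lower). Flt4 and Pgf could not be tested that way. A housing difference of the gap was called in no gene (limma, 0 of 8687, 0%, with 295 at an unadjusted p under 0.05), and for the 5 genes the adjusted p was 1.

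Housing left no called difference at these genes. Limma called 0 of 19204 promoters (0%, 851 at an unadjusted p under 0.05), 0 of 12278 bodies (0%, 415 unadjusted), 0 of 71381 clusters (0%, 2853 unadjusted) and 0 of 615152 single sites (0%, 16498 unadjusted). Each unadjusted count was below the share of 0.05 that falls under that p when nothing differs. Within the 8 genes, 9 of 364 tested sites and 0 of 30 tested clusters had an unadjusted p under 0.05. No member promoter had groups that did not overlap, against 9.44% of all promoters, and no member body with 3 or more sites did, against 7.59% of all bodies. Exact permutation tests of the 6 library means gave two-sided p-values of 0.2 to 0.8 for promoters and 0.3 to 0.7 for bodies, and 3 against 3 mice cannot go below 0.1. Groups that do not overlap always give 0.1, so this p adds nothing for values chosen on that ground. The exact p is the share of the 20 regroupings with a difference at least as large. Limma sets a difference against the variation between these 6 mice, moderated over all features.

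Vegfa, the principal angiogenic ligand (chr17:46016993-46032369, minus strand), had promoter means of 1.84%, 0.967% and 1.13% in STD replicates 1 to 3 and 1.54%, 1.38% and 1.80% in ENR replicates 1 to 3. The ranges overlapped, and the difference was 0.26 points (limma, adjusted p = 0.998). Of its 78 promoter sites, 49 were at 0 in every library. Further into the gene, 12 intron sites between 4547 and 4897 bp from the gene start were still low at 9.42% ± 3.18. The highest levels of the gene lay in the 3′ UTR. There, 5 sites 13565 to 13610 bp from the start averaged 71.4% ± 10.1 and 9 sites 14005 to 14207 bp from it averaged 32.9% ± 7.37. ENR replicate 1 was the highest library of the latter cluster with 47.2%, against 27.7% to 34.3% in the others. Without it, the body difference went from 2.97 to -0.81 points.

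Vegfb, a ligand of Flt1 linked to lipid handling and cell survival (chr19:6982473-6987651, minus strand), was covered at its promoter alone. STD replicates 1 to 3 had 1.72%, 2.04% and 0.182% and ENR replicates 1 to 3 had 2.11%, 1.12% and 2.42%. The groups overlapped, with a difference of 0.57 points (limma, adjusted p = 0.998) that was 0.0065 points without STD replicate 3. At 17 of its 25 sites every library was at 0.

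Vegfc, the lymphangiogenic ligand of Flt4 (chr8:54077606-54187096, plus strand), had the lowest promoter level of the set. Its 35 sites averaged 2.01%, 1.84% and 1.23% in the STD libraries and 0.865%, 0.313% and 1.51% in the ENR libraries. Only ENR replicate 3 lay within the STD range, and the difference of -0.80 points was not called (exact permutation p = 0.2, limma adjusted p = 0.998). The 2 body sites, in an intron 74160 and 74174 bp from the start, ran from 82.0% to 100% and from 91.7% to 100% over the libraries.

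Pgf, placental growth factor (chr12:85166635-85177790, minus strand), differed most between libraries. Its 7 promoter sites, all in 5′ UTR exon sequence, averaged 20.6%, 8.52% and 11.0% in STD and 7.61%, 13.6% and 2.62% in ENR. The ranges overlapped (difference -5.42 points, limma adjusted p = 0.998). The difference was -1.79 points without STD replicate 1 and -2.76 without ENR replicate 3. It was -8.25 without ENR replicate 2. The 6 body sites formed 1 intron cluster that averaged 27.4%, 46.9% and 13.3% in STD and 16.9%, 22.7% and 3.78% in ENR. All 6 sites had a lower mean in ENR, yet the groups overlapped and the difference of -14.7 points was not called (exact permutation p = 0.3, limma adjusted p = 1). It was -5.85 points without STD replicate 2 and -22.7 without STD replicate 3. Without ENR replicate 3 it was -9.37. The cluster is shown because it had the largest body difference of the set, with covered CpGs in capitals, on the strand of the gene.
Pgf intron cluster, chr12:85174160-85174284, minus strand: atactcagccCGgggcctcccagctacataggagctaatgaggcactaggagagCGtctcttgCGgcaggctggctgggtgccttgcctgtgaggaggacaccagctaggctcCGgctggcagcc
It holds 4 covered CpGs read as 6 sites, so the sites are neighbours on 1 short stretch and not separate replicates. In the 5′ UTR, a single cytosine 430 bp from the gene start was at 45.5%, 8.33% and 50% in STD and at 0 in all 3 ENR libraries. The groups did not overlap (exact permutation p = 0.1, limma adjusted p = 0.852). Its CpG is in capitals below.
Pgf site, chr12:85177345-85177374, minus strand: gagatagaagtgggCGggcaggctgcagcc
Its neighbours 415 and 458 bp from the start were at 0 in all 6 libraries. The site 447 bp from the start ran from 0 to 45.5% in STD and from 0 to 33.3% in ENR.

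**Figure D2:**
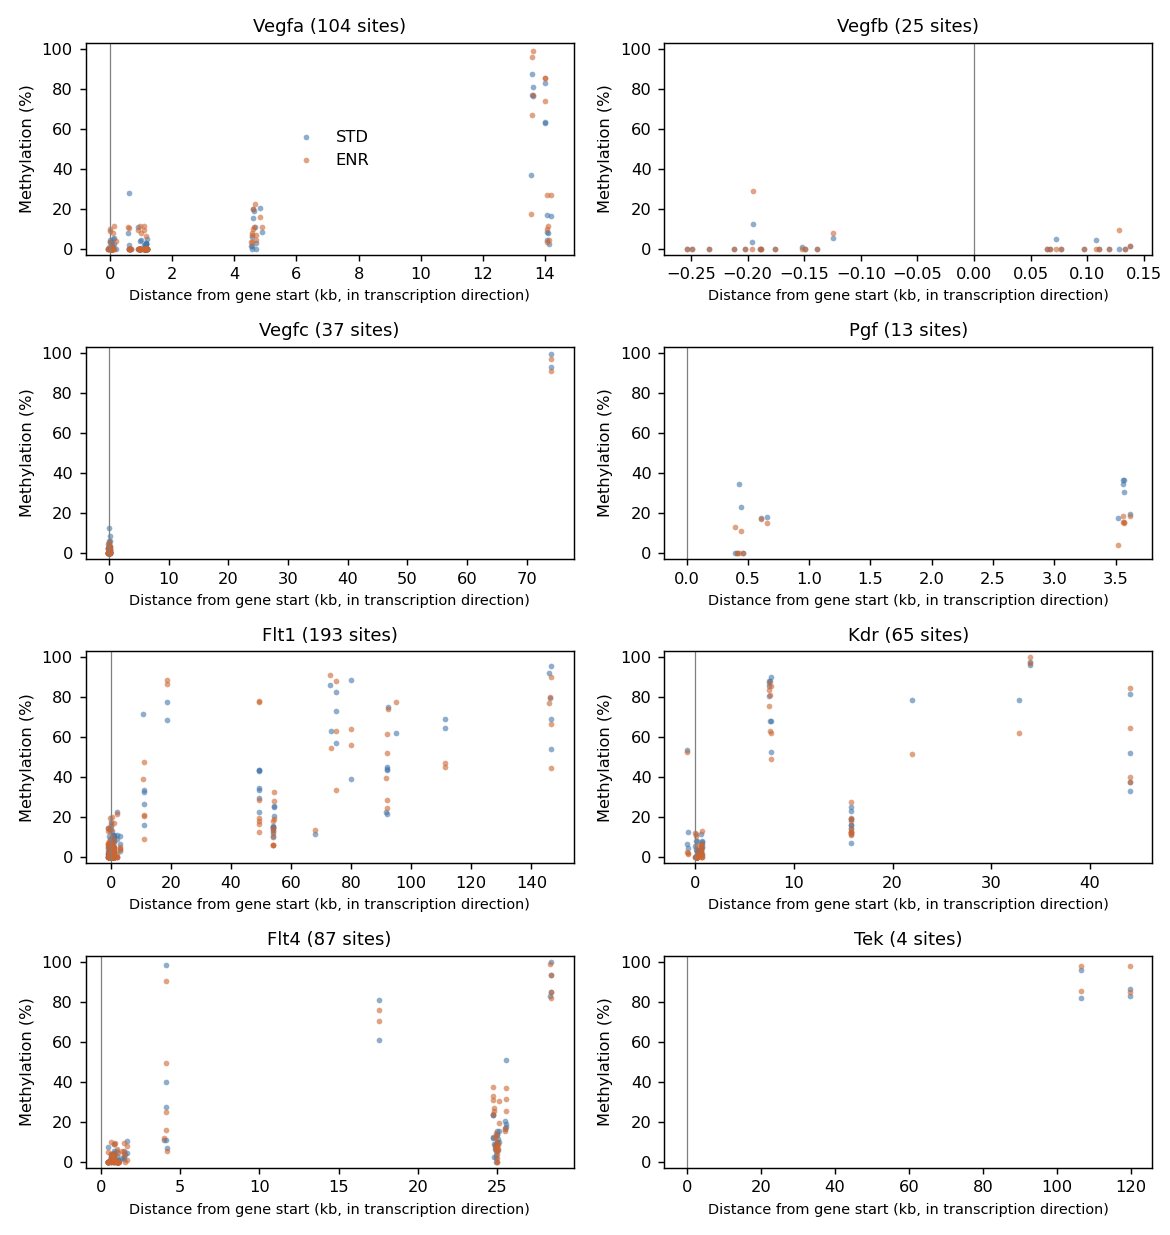
Group mean methylation (%) of every covered site against distance from the gene start (kb, in the direction of transcription), 1 panel per gene, STD blue and ENR orange. Most sites at the start lie near 0, and levels further along the genes are mixed. Among the exceptions at the start, by the mean of 6 libraries, are an upstream Kdr site (53.2%) and sites in Vegfb (20.6%), Vegfa (19.0%) and Pgf (17.3%).

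Flt1, which encodes VEGF receptor 1 (chr5:147561604-147726011, minus strand), was the most covered gene. The 134 sites within 1 kb of its start averaged 2.60%, 2.24% and 1.93% in STD and 2.70%, 2.36% and 1.54% in ENR. The groups overlapped almost fully, and 54 of these sites were at 0 in every library. The 12 further promoter sites had a mean of 42.3% ± 13.9, which mixes 2 kinds. Of these, 2 lay 1002 and 1003 bp from the gene start and averaged under 10%. The other 10 lay near the internal starts of shorter annotated transcripts, with means of 62.1% (2 sites), 44.4% (6 sites) and 56.6% (2 sites). Across the 47 body sites STD had 38.7%, 39.1% and 27.3% and ENR had 38.6%, 32.8% and 26.9%. The difference was -2.25 points (limma, adjusted p = 1), and replicate 3 was lowest in both groups. Without ENR replicate 3 the difference was 0.69 points, and without STD replicate 3 it was -6.09.

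Levels varied along the Flt1 body. Intron sites 10911 to 11029 bp from the start averaged 31.8% ± 11.7, those 54149 to 54285 bp from it 16.1% ± 6.57, and those 146531 to 146675 bp from it 70.2% ± 4.72. In the last of these, STD had 78.6%, 70.1% and 70.6% and ENR had 69.9%, 64.6% and 67.2%. The groups did not overlap, and the difference of -5.89 points was not called (exact permutation p = 0.1, limma adjusted p = 1). A second Flt1 cluster, 1984 to 2154 bp from the start, was also apart, at 8.31%, 7.82% and 16.04% in STD and 6.60%, 5.23% and 5.77% in ENR. These were 2 of the 31 clusters of 3 or more sites in the set, against 8.78% of all clusters in the table. The first is shown, as the cluster with the larger difference, with covered CpGs in capitals.
Flt1 intron, chr5:147579326-147579490, minus strand: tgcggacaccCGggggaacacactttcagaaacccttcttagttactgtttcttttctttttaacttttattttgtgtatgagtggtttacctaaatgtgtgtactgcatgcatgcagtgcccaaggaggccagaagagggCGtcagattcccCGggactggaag

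Differences at single sites were wider than those of clusters. A difference over 25 points was seen at 6 of the 528 sites, or 1.14%, against 1.94% of all sites, and 4 of the 528 (0.758%) also had groups that did not overlap, against 0.81% of all sites. At 17 of the 528 sites (3.22%) the groups lay apart, against 3.99% in the table, so none of these shares stood above the background. The 4 sites that met both criteria were the Pgf cytosine and 3 sites in the Flt1 intron cluster 49315 to 49391 bp from the start. That cluster is shown with its 4 covered CpGs in capitals, on the strand of the gene.
Flt1 intron, chr5:147676610-147676706, minus strand: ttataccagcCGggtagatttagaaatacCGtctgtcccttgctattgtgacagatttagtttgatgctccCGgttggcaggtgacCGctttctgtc
At the third CpG, the minus-strand cytosine was at 25.9%, 29.1% and 33.3% in STD and at 76.5%, 100% and 56.2% in ENR. The plus-strand cytosine of the same CpG was at 51.1%, 47.8% and 30.3% in STD and at 18.9%, 25% and 5.71% in ENR. Both strands of this CpG thus separated the groups, in opposite directions. The differences were 48.1 and -26.5 points (exact permutation p = 0.1 each, limma adjusted p = 0.852). Housing differences that lie more than 50 points apart between the strands of a CpG occurred at 128 of 132547 CpGs (0.0966%). The minus-strand cytosine of the fourth CpG was at 25.9%, 29.1% and 13.3% in STD and at 35.3%, 100% and 100% in ENR. The other 4 sites of the cluster had lower means in ENR, and the cluster mean differed by 0.21 points.

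The other sites past 25 points overlapped between groups. In Flt1, 10911 bp from the start, STD had 86.1%, 88.9% and 39.4% and ENR had 81.6%, 32.0% and 3.33%. In Kdr, 22002 bp from the start, STD had 68.4%, 75.7% and 91.9% and ENR had 81.2%, 70.0% and 3.85%. Without ENR replicate 3 these differences went from -32.5 to -14.7 points and from -27.0 to -3.04 points. Without ENR replicate 1 they were -53.8 and -41.7 points.

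**Figure D3:**
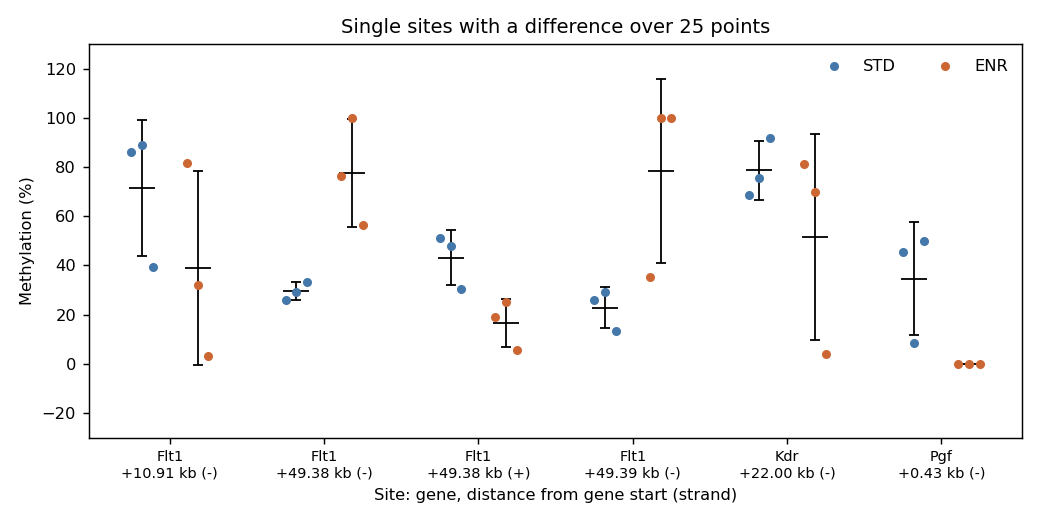
Methylation (%) of the 6 single sites with a difference over 25 points, 1 point per library (STD blue, ENR orange), bars for mean ± SD (n = 3). The neighbouring minus- and plus-strand cytosines of Flt1 separate in opposite directions, and the Pgf site is at 0 in all 3 ENR libraries.

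Kdr, which encodes VEGF receptor 2 (chr5:75932827-75978458, minus strand), had promoter means of 5.24%, 4.55% and 3.26% in STD and 2.98%, 2.69% and 5.37% in ENR. The groups overlapped, with a difference of -0.67 points (limma, adjusted p = 0.998). The level depended on the place: 25 sites around the start averaged 1.64% ± 0.789, while 4 upstream sites at -906 to -726 bp averaged 17.1% ± 3.57. The site at -880 bp carried this mean, at 47.1% to 57.4% in every library, and the other 3 averaged 3.39% to 7.13%. In the body, 8 intron sites 7478 to 7688 bp from the start averaged 75.6% ± 6.38. The next cluster, 15746 to 15830 bp from the start and mostly in exons of a noncoding transcript, averaged 16.4% ± 9.23, and the 3′ UTR averaged 54.0% ± 6.80. The body as a whole was at 54.2%, 53.3% and 52.2% in STD and 52.1%, 58.1% and 42.1% in ENR, with overlapping groups and a difference of -2.44 points (limma, adjusted p = 1). The difference was 1.91 points without ENR replicate 3 and -6.12 without ENR replicate 2.

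Flt4, which encodes VEGF receptor 3 (chr11:49609263-49652739, plus strand), had promoter means of 1.98%, 2.27% and 1.90% in STD and 3.55%, 1.40% and 2.06% in ENR. The ENR libraries lay on both sides of the STD libraries. Its body was at 21.1%, 17.4% and 17.4% in STD and 21.6%, 21.1% and 18.5% in ENR, a difference of 1.75 points (limma, adjusted p = 1). Low body levels were found in 3 places. Just past the promoter, 11 intron sites 1002 to 1113 bp from the start averaged 0.642% ± 0.755, and 7 intron sites 1316 to 1660 bp from it averaged 4.35% ± 1.01. Far from the start, 24 sites 24729 to 25107 bp from it, of which 22 were in coding exons, averaged 12.0% ± 5.72. In these 24 sites the means were 16.3%, 8.09% and 5.47% in STD and 18.1%, 17.1% and 7.08% in ENR, and the groups overlapped. The first 200 bases are shown as a CpG-dense coding stretch in which the level changes, with covered CpGs in capitals.
Flt4 coding exon, chr11:49633992-49634191, plus strand: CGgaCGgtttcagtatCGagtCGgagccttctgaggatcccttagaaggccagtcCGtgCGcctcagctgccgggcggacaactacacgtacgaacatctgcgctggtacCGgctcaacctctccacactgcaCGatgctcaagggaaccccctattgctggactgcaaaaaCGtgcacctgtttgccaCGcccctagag
The stretch holds 15 CpGs, of which 10 were covered. Its 11 sites averaged 14.9%, with 21.6% at the 6 sites of the first 100 bases and 6.75% at the 5 later sites. ENR replicate 2 was the highest library at the first 6 sites, with 48.1%, and the lowest at the later 5, with 1.36%. ENR replicate 1 had 23.4% at the later 5 sites, against 1.36% to 4.40% in the other libraries. The intron cluster 28355 to 28419 bp from the start, by contrast, averaged 90.03% ± 3.17.

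Tek (chr4:94739289-94874976, plus strand) was read at 2 intron sites and 2 coding exon sites, 106477 to 119761 bp from the start. Their mean was 86.4%, 88.3% and 85.4% in STD and 90.5%, 97.9% and 86.0% in ENR. All 4 sites had a higher mean in ENR, but ENR replicate 3 lay within the STD range and the difference of 4.75 points was not called (limma, adjusted p = 1). It was 1.55 points without ENR replicate 2 and 7.48 without ENR replicate 3.

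**Figure D4:**
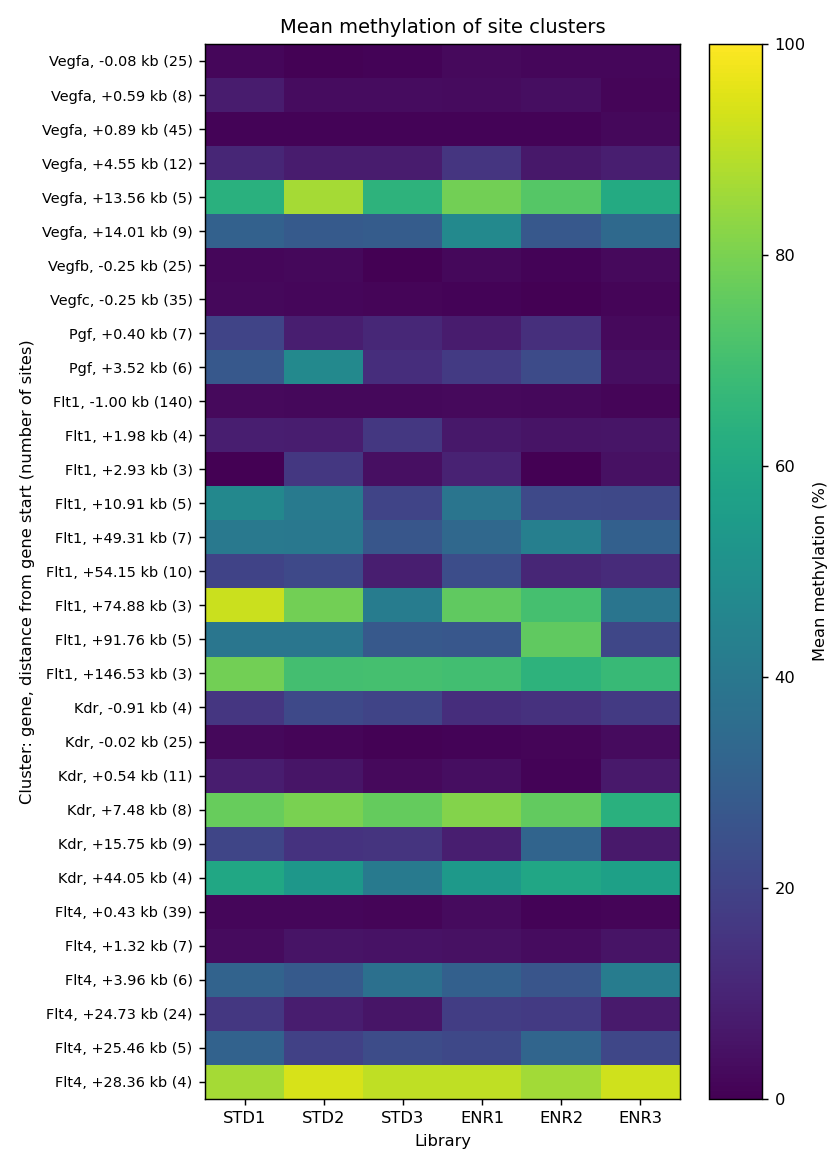
Mean methylation (%, colour) of the 31 clusters of 3 or more sites in each library, with the distance of the first site from the gene start and the number of sites. Rows differ far more than columns: most clusters at the gene starts are dark in all 6 libraries, while the last Flt4 cluster averages 90.03%. Exceptions at the starts are Pgf, at 2.62% to 20.6%, and the upstream Kdr cluster, at 13.3% to 22.2%.

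Levels were also compared by the sequence around each site. Island-like sites were those whose surrounding 201 bases reached a GC content of 50% and 0.6 of the CpGs that their C and G content predicts. The 352 island-like sites averaged 3.24%, with 93.75% of them under 10%, and the other 176 averaged 32.1%. Within 1 kb of the gene start both kinds were low, with 2.01% at 277 island-like sites and 5.72% at 37 others. More than 1 kb from the gene start, 75 island-like sites averaged 7.75% and 139 others averaged 39.1%. Of the 75, 50 lay 1002 to 1201 bp from the start in clusters that reach into the first 1 kb, and averaged 0.804%. The other 25 averaged 21.6%: 21 in Flt4 averaged 12.0%, 3 in the 3′ UTR of Vegfa averaged 86.0% and 1 in Flt1 was at 31.2%. Away from the starts, an island-like sequence thus did not always go with a low level. Neighbouring sites share fragments and libraries, so this is a description. Of the 19 clusters of 3 or more sites outside promoters, 7 were under 20%, 7 between 20 and 60% and 5 above 60%.

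Hypoxia-inducible factors, which raise VEGF production when oxygen is low, bind the core ACGTG or GCGTG (searched on both strands). The core holds a CpG, and 27 covered sites lay in 1. All 27 averaged 14.1%, against 12.8% at the other 501 sites. The 7 within 1 kb of a gene start averaged 1.39%, none above 4.82%, and the 307 other sites there averaged 2.48%. The core is common: 43.8% of 32851 RefSeq promoters (250 bases before to 50 after the start) hold it, so a match does not mark a binding site.

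In genes that act with the set no promoter or body was called, as in the whole table (0 of 19204 promoters and 0 of 12278 bodies, 0%). Among the co-receptors, the angiopoietins, Tie1, Ptprb and the ligand Vegfd, 5 of 8 promoters were measured (median 1.63%) and 7 of 8 bodies (median 44.9%). All 6 promoters of oxygen-sensing regulators were measured (median 1.77%), and 4 bodies (median 22.6%). For downstream signalling, 9 of 10 promoters (median 2.82%) and 7 bodies (median 33.4%) were measured. Median housing differences of the promoters were -0.08, -0.29 and 0.03 points, against -0.06 points over all promoters. For the bodies they were -1.59, -2.49 and -0.33 points, against -0.76 points over all bodies. Single genes of these lists differed more. Promoters ran from -3.41 points (Akt1, 24 sites) to 17.1 (Angpt2, 3 sites), and bodies from -13.6 (Pik3r1, 35 sites) to 6.94 (Src, 9 sites). The Pik3r1 groups did not overlap, as in 7.59% of all bodies. Promoters of cell type markers had medians of 1.97% for granule neurons (5 of 6 genes measured), 5.35% for endothelial cells (7 of 10), 8.13% for pericytes (4 of 5), 8.17% for oligodendrocytes (3 of 5), 28.1% for astrocytes (4 of 4) and 40.2% for microglia (2 of 5), and none was called. Median body differences of these marker lists ran from -5.77 points for microglia (4 genes) and -4.66 for astrocytes to 0.23 for endothelial cells, also without a call. The genes most like Flt1 in promoter and body level over the 6 libraries were Shank2, Myom1 and Phactr1, at Euclidean distances of 7.501, 7.87 and 8.94 points over 12 values among 4242 genes.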

How the data were processed

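The deposited table gives the percent of methylated reads per cytosine and library. Per the study's methods and the submitters' processing notes, the authors trimmed reads with Trim Galore and cutadapt (1.8.1), aligned them to mm10 with Bismark and filtered sites on read number with methylKit (1.5.2). Their trimming also removed cytosines filled in at fragment ends. The table holds no read numbers, so the read-based test of the study could not be run, and each site has the same weight whatever its depth.

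Sites were assigned with GENCODE M21, strand-aware. Percentages were averaged per library over promoter, body and clusters (gaps of at most 200 bp, 3 or more sites). Differences were tested with limma (3.58.1, variance trend, R 4.3.3) over the whole table with Benjamini-Hochberg adjustment at 0.05, and for single values by exact permutation. The scripts were tested on simulated data. All 8 genes are described. Within them, the cluster with the largest difference among those without overlap and the sites past 25 points without overlap were named by rule. The second Flt1 cluster and the overlapping sites past 25 points were named after their values were seen. Members and gene lists were chosen with earlier results of these data known, and Flt1 is a gene the study picked from these samples. No column of library values was left unused. Deviations of same-numbered libraries correlated at 0.055, 0.032 and 0.125, and those of differently numbered libraries at -0.082 to 0.041. No label says that a number pairs mice, so the numbers were not taken to pair them. Alternatives were other region definitions, scales, normalisations, filters and leaving out each library.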

Additional observations from a re-analysis of the deposited data

How the results depend on the processing

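Housing calls stayed at 0 for promoters, bodies, clusters, sites and the body-promoter gap under every alternative, including the replicate block, where 917 promoters and 637 bodies had an unadjusted p under 0.05. Unadjusted counts over the alternatives ran from 231 to 1025 for promoters, 166 to 790 for bodies, 1752 to 3838 for clusters, 5071 to 24040 for sites and 106 to 442 for the gap. Bodies above promoters numbered 7309, and 7286 with the replicate block, 7185 to 7254 with 1 library left out, and 3678 where each region needed 10 sites, since only 4243 genes were then tested. As a share of genes tested this was 84.1%, 86.7% with 10 sites and 54.4% (5259 of 9667) with the promoter limited to the 1 kb upstream. Same-numbered libraries had positive but weak correlations of their deviations (0.032 to 0.125). No label pairs them, so the block is an alternative only.

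No member difference was called, and several changed sign. At the Flt1 promoter the difference was 0.22 under quantile normalisation, 1.08 for sites upstream of the start only, and -0.96 to 0.93 with 1 library left out. The Kdr promoter had 0.19 under quantile normalisation. Flt4 had -0.25 at the promoter and -0.63 in the body with medians over sites, and -0.32 to 0.75 at the promoter with 1 library left out. With 1 library left out, body differences ran from -0.81 to 5.07 for Vegfa, -6.09 to 0.69 for Flt1, -6.12 to 1.91 for Kdr, -22.7 to -5.85 for Pgf and 1.55 to 7.48 for Tek, and promoter differences from 0.0065 to 0.95 for Vegfb and -8.25 to -1.79 for Pgf. The other differences kept their sign when 1 library was left out, within 0.09 to 0.52 (Vegfa promoter), -1.10 to -0.50 (Vegfc promoter), -1.52 to -0.18 (Kdr promoter), -5.21 to -0.48 (Vegfc body) and 1.117 to 3.0005 (Flt4 body). The Pgf gap between body and promoter passed the test with the replicate block (adjusted p = 0.0373), with medians (0.0148) and without STD replicate 2 (0.0257) or STD replicate 3 (0.0299). Its size was 11.2 points, but 5.52 without STD replicate 2, 14.5 without STD replicate 3 and 15.9 with medians. The cause of these changes was not tested. Depth per site is unknown, which limits every single-site value.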
